A study of Zanthoxylum armatum with 15 samples.

Results

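The mature leaf-restricted unigenes of Zanthoxylum armatum, a green prickly ash whose dried fruits are used as a numbing spice, were 62 of the 111318 unigenes (assembled transcripts that stand for 1 gene) measured in 5 organs. They were chosen by their level, given in CPM, the estimated count of a unigene per 1000000 counts of its library. A member had an identifier of the group Cluster-12235, at least 10 CPM in each of the 3 mature leaf libraries, and a lowest mature leaf CPM at least 16 times the highest CPM among the other 12 libraries. That group holds 79040 unigenes, and 1 further unigene outside it, Cluster-26840.0, passed both thresholds. The same thresholds set for another organ gave 37 unigenes for leaf buds, 13 for stems, 193 for roots and 89 for fruits.

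Mature leaves and the other 4 organs (leaf buds, stems, roots and fruits) came from 3-year-old plants of the cultivar Hanyuan putaoqing at about 60 days after fertilization. Each organ had 3 libraries, and each library mixed material from 3 plants, so the replicate error describes mixtures and not single plants. The deposited tables of the stem libraries carry another abbreviation inside, so all stem values rest on the labels' assignment of those tables to stems. The 15 libraries held between 18802274 and 24081708 estimated counts.

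A mature leaf is a source organ. It has finished growing, fixes carbon in the light, exports sugars to growing organs and fruits, and is covered by a cuticle of cutin and wax. A leaf bud holds leaves that still divide and expand and import carbon, and a green fruit photosynthesizes while it stores sugars, oils and scented compounds. The leaf therefore differs from the other organs in its place in carbon transport as well as in its green colour, and hormones such as cytokinins act on the ageing of the mature blade.

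The libraries labelled as mature leaves carried the markers of green leaf tissue. The 3 unigenes named rbcS, which encodes the small subunit of the carbon-fixing enzyme Rubisco, summed to between 34130 and 35240 FPKM (CPM further divided by the length of the unigene, so that unigenes can be compared) in mature leaves, 4112 to 4553 in fruits, 1890 to 2492 in leaf buds, 930.5 to 1788 in stems and 18.87 to 26.19 in roots. One of them, Cluster-12235.62198, went the other way, with a mean of 0.083 FPKM in mature leaves against 25.4 in leaf buds, 21.4 in roots, 17.4 in fruits and 5.09 in stems, and made up most of the sum in roots. The 20 unigenes held here of the antenna proteins, which collect light for photosynthesis, had a median sum of 27430 FPKM in mature leaves. The other organs had 11500 in fruits, 9900 in stems, 6996 in leaf buds and 20.06 in roots. Of the unigenes used to mark other organs, a chalcone synthase unigene (CHS) that reached 3786 to 6233 FPKM in fruits was at 0 to 0.04 in mature leaves, and 2 monoterpenoid unigenes of fruits summed to 7.08 to 8.42 FPKM there against 2755 to 3240 in fruits. A YUCCA unigene that marks stems was at 0 to 0.04 FPKM. None of these marker unigenes was a member. The rbcS and monoterpenoid unigenes come from lists that the study picked from these same libraries. The CHS and YUCCA unigenes were chosen with earlier results of these data known. The levels of these markers are therefore not independent evidence of the organ. The green markers were also found in the other green organs. As a share of the mature leaf level, rbcS stood at 12.6% in fruits, 6.14% in leaf buds and 4.24% in stems. The antenna proteins stood at 40.5% in fruits, 36.3% in stems and 27.35% in leaf buds. The summed FPKM of the 62 members stood at 2.56% in fruits, 1.40% in leaf buds and 1.38% in stems, shares that the rule held low in advance.

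The members together took between 1.39% and 1.40% of all counts in the mature leaf libraries. In the other organs their share was 0.0308% to 0.0423% in fruits, 0.0225% to 0.0248% in stems, 0.0172% to 0.0225% in leaf buds and 0.0088% to 0.0099% in roots. These shares were set by the rule and are given as a description. Single members had mean levels in mature leaves from 10.8 to 3712 CPM, with a median of 45.3. Above 1000 CPM there were 3 members, between 100 and 1000 there were 17, between 20 and 100 there were 24, and below 20 there were 18. The 3 most abundant held 60.6% of the members' CPM.

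**Figure D1:**
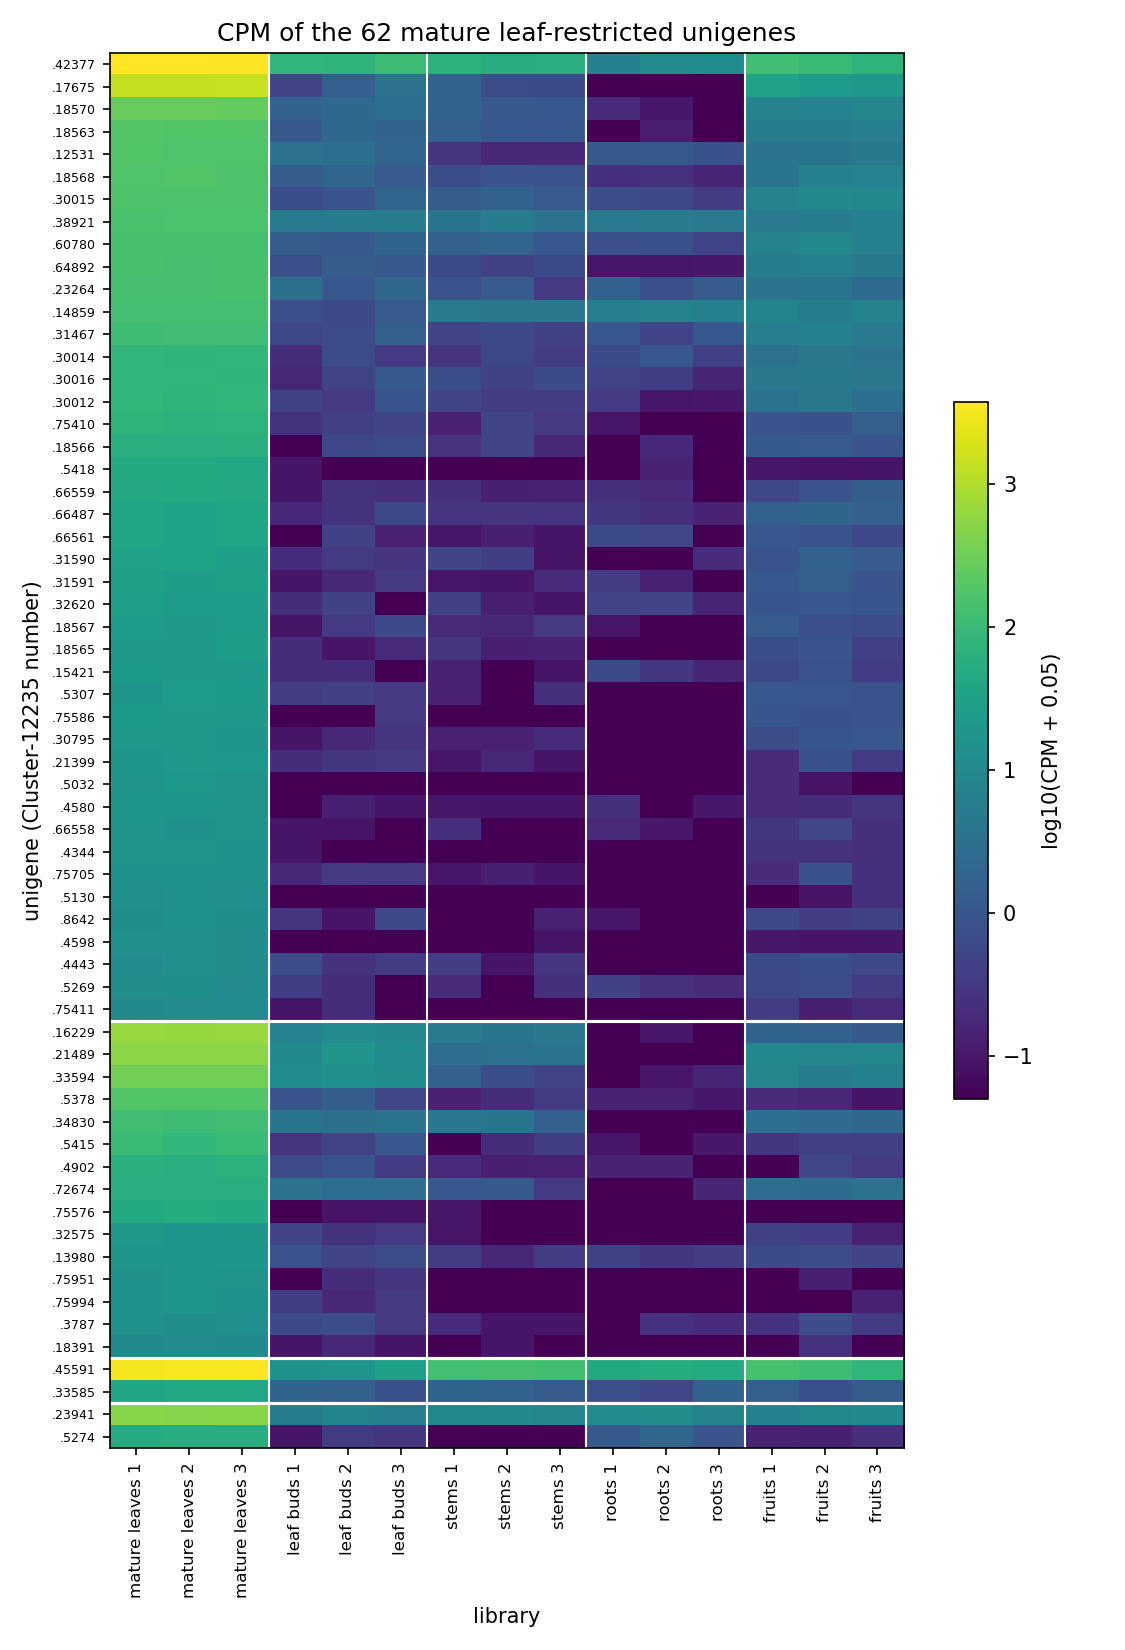
Heat map of the 62 members (rows, by the number after Cluster-12235) in the 15 libraries (columns), coloured by log10(CPM + 0.05). Rows are grouped by the other organ with the highest mean, from top to bottom 43 for fruits, 15 for leaf buds, 2 for stems and 2 for roots, and the 3 mature leaf columns are the brightest in every row.

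Names could be given to only 9 of the 62 members, from the KEGG names (a database of pathways and enzymes) that the study's supplementary tables attach to identifiers. The other 53 members, among them the 8 most abundant, had no entry in the tables used here and are called by their identifiers. The tables name unigenes of pathways picked from these same libraries, so the mature leaf level of a named member is not independent evidence. In the order of their roles, the 9 comprised 2 enzymes of galactinol and raffinose sugars, 2 proteins of cytokinin synthesis and signalling, 3 enzymes of acetate, aldehyde and glyoxylate metabolism, and 2 enzymes of wall and surface polymers.

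Cluster-12235.5378 carried the name GOLS, galactinol synthase, which makes galactinol from UDP-galactose and inositol and so starts the raffinose family of sugars, known in plants as transport sugars and as protectants under cold and drought. Its levels were 182, 179.9 and 177 CPM in the 3 mature leaf libraries. In leaf buds it had 0.901, 1.33 and 0.505 CPM, in stems 0.0937, 0.171 and 0.313, in roots 0.0959, 0.0991 and 0.0532, and in fruits 0.157, 0.126 and 0.0463. The leaf bud libraries lay above all libraries of stems, roots and fruits. Among the organs that the rule treats alike, leaf buds were higher than fruits by 2.67 on the log2 scale (standard error 0.465, adjusted p = 6.84e-05), than roots by 3.33 (standard error 0.492, adjusted p = 6.55e-06) and than stems by 2.13 (standard error 0.397, adjusted p = 0.000229), all from the quasi-likelihood test of edgeR, with p adjusted by Benjamini-Hochberg over the 57488 unigenes tested. A difference is said here to pass that test where its adjusted p is under 0.05. The mean level in mature leaves was 197-fold that in leaf buds and 1637-fold that in fruits, where only 7 counts stood against 11373 in mature leaves.

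The second sugar enzyme was Cluster-12235.75994, named galA, an alpha-galactosidase, which takes galactose off raffinose-type sugars and galactolipids. Mature leaves had 15.3, 18.1 and 15.2 CPM and leaf buds 0.343, 0.1246 and 0.275. It had 0 counts in all stem and root libraries, which allows a level of up to 0.0448 CPM in stems and 0.0501 CPM in roots (3 counts over the 3 libraries of an organ, a limit that covers counting error only, as do all such limits and counting intervals here). In fruits it was at 0, 0 and 0.0926 CPM, below every leaf bud library. These levels rest on 17 counts in leaf buds and 2 in fruits. The unigene entered the fit through its mature leaf counts and fell below the low-count filter with leaf buds and fruits alone. Its call as higher in leaf buds than in fruits was lost without leaf bud replicate 1 and without fruit replicate 1 or 2.

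Cytokinins are adenine-derived hormones that promote cell division and delay the ageing of leaves. Cluster-12235.14859 carried the name IPT, an isopentenyltransferase, the enzyme of the first step of cytokinin synthesis. It had 132, 131 and 128.5 CPM in mature leaves. Its pattern elsewhere was unlike that of the other named members, since it was lowest in leaf buds (0.73, 0.54 and 1.19 CPM) and higher in stems (4.97, 4.41 and 4.16), roots (5.94, 7.53 and 6.49) and fruits (7.72, 5.67 and 7.60). Leaf buds did not overlap with any of these 3 organs, while the ranges of roots and fruits overlapped. Leaf buds were lower than each, with a log2 value of -3.46 against fruits (standard error 0.201, adjusted p = 1.09e-11), -3.07 against roots (standard error 0.204, adjusted p = 5.25e-11) and -2.55 against stems (standard error 0.211, adjusted p = 7.04e-09, edgeR).

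Cluster-12235.5415 carried the name AHP, a histidine-containing phosphotransfer protein, which passes the cytokinin signal from the receptors at membranes to response regulators in the nucleus. Mature leaves had 96.8, 85.2 and 95.2 CPM. Leaf buds had 0.215, 0.457 and 1.01 CPM, fruits 0.261, 0.378 and 0.370, stems 0, 0.171 and 0.358, and roots 0.0479, 0 and 0.0532. Leaf buds, fruits and stems overlapped, and the difference between leaf buds and fruits did not pass the test (log2 0.33, standard error 0.508, adjusted p = 0.634, edgeR). Leaf buds held 38 counts, fruits 22, stems 12 and roots 2. The unigene fell below the low-count filter with leaf buds and fruits alone, with leaf buds and stems alone and with leaf buds and roots alone. It entered the fit through its mature leaf counts. Its call as higher in leaf buds than in stems was lost in 12 alternatives, 11 of them with 1 library left out. The next unigenes by number, Cluster-12235.5416 and Cluster-12235.5417, carry the name AHP too and had mean levels of 7.75 and 6.26 CPM in mature leaves, below the 10 CPM of the rule.

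In the metabolism of 2-carbon compounds, Cluster-12235.8642 was named ACSS, acetyl-CoA synthetase, which activates acetate, and Cluster-12235.4443 was named aceB, malate synthase, which joins glyoxylate and acetyl-CoA in the glyoxylate cycle, a route by which plant tissues recover carbon from fats. Mature leaves had 13.3, 15.3 and 13.5 CPM of ACSS and 10.9, 14.9 and 12.6 CPM of aceB. For ACSS the fruit libraries had 0.522, 0.336 and 0.417 CPM, within the span of the leaf buds (0.215, 0.0415 and 0.551), and stems and roots together held 3 counts. For aceB the fruits had 0.573, 0.681 and 0.509 CPM, the leaf buds 0.644, 0.208 and 0.321, the stems 0.328, 0.0428 and 0.224, and all root libraries 0 counts. Fruits and leaf buds overlapped for both enzymes, and neither difference passed the test (adjusted p = 0.130 for ACSS and 0.0872 for aceB, edgeR). Leaf buds held 18 counts of ACSS and 27 of aceB, and fruits 27 and 38, too few to show that the 2 organs were alike. ACSS entered the fit through its mature leaf counts and fell below the low-count filter with leaf buds and fruits alone. Cluster-12235.75705, named ALDH, an aldehyde dehydrogenase that oxidizes aldehydes to acids, had 15.4, 15.2 and 15.6 CPM in mature leaves, 0.158, 0.755 and 0.185 in fruits, 0.129, 0.291 and 0.275 in leaf buds, 0.0468, 0.0857 and 0.0447 in stems, and 0 counts in roots.

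Cluster-12235.5274 was named as a peroxidase of phenylpropanoid metabolism, an enzyme class that oxidizes phenolic compounds and takes part in building lignin and other wall polymers. Its levels were 53.0, 54.4 and 53.5 CPM in mature leaves. Roots came next, with 1.15, 1.93 and 0.904 CPM, above every library of leaf buds (0.0429, 0.291 and 0.229) and fruits (0.104, 0.0839 and 0.185), and all stem libraries had 0 counts. Leaf buds were lower than roots, with a log2 value of -2.82 (standard error 0.390, adjusted p = 4.86e-06, edgeR), and the difference between leaf buds and fruits did not pass the test (log2 0.23, standard error 0.646, adjusted p = 0.805). With leaf buds and fruits alone the unigene fell below the low-count filter, so it entered that test through the counts of other organs. With 13 counts in leaf buds and 8 in fruits, that test cannot show that the 2 organs were alike.

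Cluster-12235.32575 was named FAR, a fatty acyl-CoA reductase, which makes the fatty alcohols of cuticular wax and suberin. It had 20.6, 18.0 and 18.8 CPM in mature leaves, 0.472, 0.207 and 0.275 in leaf buds, 0.417, 0.336 and 0.0926 in fruits and 0.0468, 0 and 0 in stems, and 0 counts in roots. The leaf bud and fruit libraries overlapped. Every leaf bud library lay above every stem and root library, but these values rest on 22 counts in leaf buds, 1 in stems and 0 in roots. FAR entered the fit through its mature leaf counts and fell below the low-count filter in a fit of leaf buds with stems or with roots alone, so no test between them is given.

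**Figure D2:**
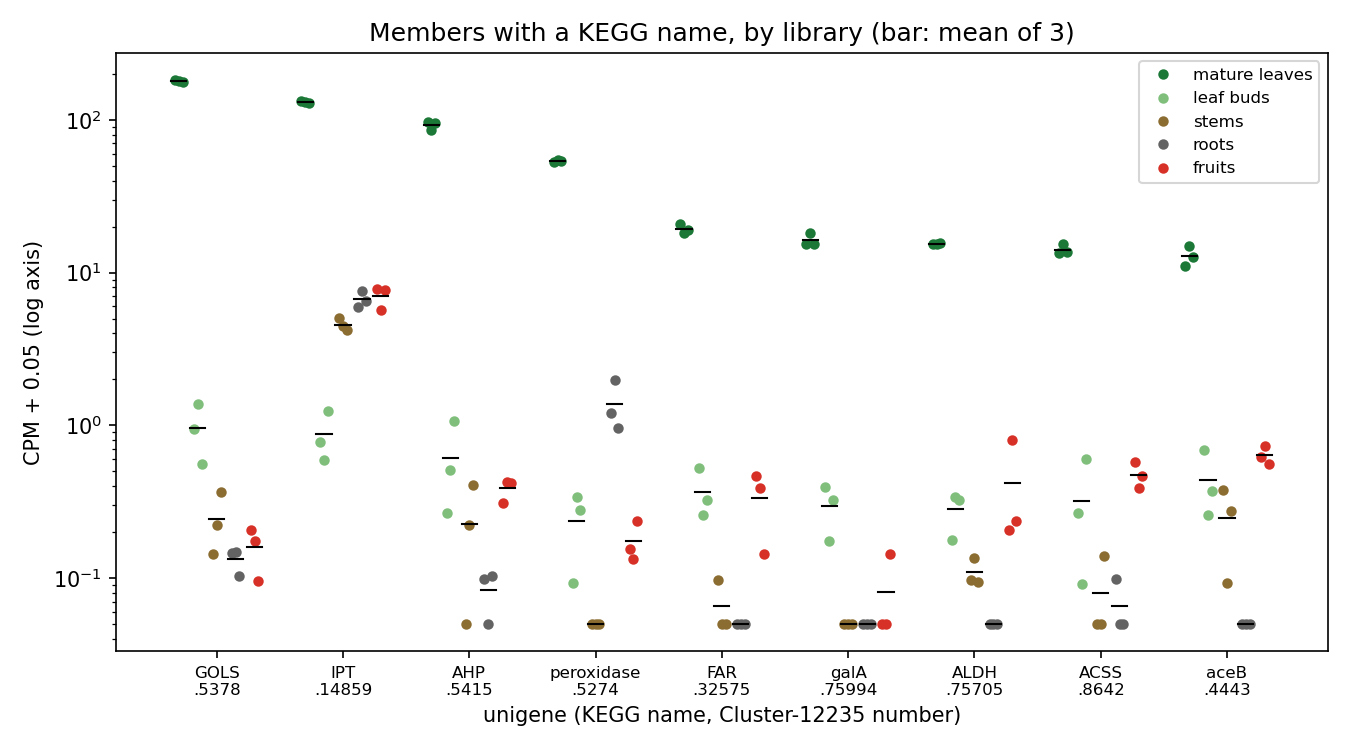
CPM + 0.05 on a log axis for the 9 members with a KEGG name, with 1 point for each library coloured by organ and a bar for the mean of 3 libraries. IPT is the only one of the 9 with stems, roots and fruits all above 4 CPM, and the peroxidase the only one with roots as the highest of the other organs.

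Of the members without a name, 3 had over 1000 CPM. Cluster-12235.42377 was the most abundant, with 3703, 3688 and 3746 CPM in mature leaves. It was restricted only in proportion, since it still had 83.0, 78.2 and 111 CPM in leaf buds, 66.8, 53.8 and 59.1 in stems, 120.0, 95.5 and 75.5 in fruits and 6.66, 10.9 and 11.9 in roots. Leaf buds and fruits overlapped, and roots were below all others, by 3.15 on the log2 scale in leaf buds against roots (standard error 0.202, adjusted p = 3.09e-11, edgeR). Per length it also led the members, with 4613 ± 26.2 FPKM in mature leaves (SD, n = 3).

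Cluster-12235.45591 followed, with 3275, 3323 and 3342 CPM in mature leaves and 2727 ± 25.6 FPKM (SD, n = 3). Stems had the highest mean of the other organs, with 131, 136 and 126 CPM, and overlapped with fruits at 144, 113 and 82.3. Roots had 46.0, 52.4 and 50.0 CPM and leaf buds 16.1, 16.6 and 30.6. Leaf buds lay below every library of the other 3 organs, with a log2 value of -2.74 against stems (standard error 0.203, adjusted p = 1.49e-09), -2.80 against fruits (standard error 0.204, adjusted p = 3.62e-10) and -1.29 against roots (standard error 0.197, adjusted p = 1.05e-05, edgeR).

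Cluster-12235.17675 had 1389, 1428 and 1441 CPM in mature leaves. Fruits were its only other organ over 10 CPM, with 32.6, 24.7 and 20.9 CPM, against 0.429, 1.41 and 3.21 in leaf buds and 1.73, 0.600 and 0.582 in stems. It had 0 counts in roots, so that mature leaves were at least 28310-fold higher than roots. Fruits were higher than leaf buds: the log2 value of leaf buds against fruits was -4.34 (standard error 0.356, adjusted p = 7.66e-09, edgeR).

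A group of abundant members had leaf buds as the next organ. Cluster-12235.16229 had 651, 629 and 661 CPM in mature leaves, 7.25, 11 and 8.90 in leaf buds, 5.01, 3.85 and 4.21 in stems and 1.83, 1.64 and 1.112 in fruits, and 1 count in roots. Its organs followed one another with no overlap, and leaf buds were higher than fruits by 2.21 on the log2 scale (standard error 0.194, adjusted p = 6.22e-09, edgeR). Cluster-12235.33594 had 347, 346 and 349.5 CPM in mature leaves, 11.8, 14.8 and 12.4 in leaf buds, 8.34, 5.66 and 6.76 in fruits, 1.499, 0.685 and 0.448 in stems and 3 counts in roots. Its leaf buds were higher than stems by 3.81 (standard error 0.249, adjusted p = 2.36e-10, edgeR). For Cluster-12235.21489, with 542, 523 and 523 CPM in mature leaves, leaf buds had 10.7, 17.3 and 11.4 CPM and fruits 9.54, 8.27 and 8.66. These did not overlap, but the difference did not pass the test (log2 0.22, standard error 0.164, adjusted p = 0.298, edgeR). Here CPM and the fit are on different scales, since the fit also divides by normalization factors, which were 1.115 to 1.179 in leaf buds and 0.867 to 0.901 in fruits. The stems of this unigene had 2.67, 3.21 and 3.62 CPM, and its roots had 0 counts.

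For 3 members the highest of the other 12 libraries was less than 4 times the lowest. Cluster-12235.38921 had 151, 154 and 157 CPM in mature leaves and between 3.55 and 6.68 CPM in each of the other 12 libraries, and a difference among the 4 organs passed the F test (adjusted p = 0.0022, edgeR). Cluster-12235.23941 had 520.2, 494 and 503 CPM in mature leaves, and between 5.61 and 12.3 CPM elsewhere, with leaf buds (5.61, 7.73 and 6.06) overlapping with fruits (6.99, 8.57 and 9.39) and with roots (11.7, 12.3 and 7.51). That unigene passed the F test too (adjusted p = 0.000774, edgeR). Its absolute log2 differences between leaf buds and the other organs stayed under 1, though each had an adjusted p under 0.05 (0.000687 against fruits, edgeR). With an effective length of 4917 bases it was among 3 members over 3000 bases. Cluster-12235.33585 had 38.7, 39.9 and 40.9 CPM in mature leaves and 0.495 to 1.805 CPM in the other 12 libraries, and a difference among the 4 organs did not pass the test (adjusted p = 0.278, edgeR).

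At the other end stood members that were almost silent outside mature leaves. For Cluster-12235.75576 the libraries of mature leaves had 48.6, 52.6 and 48.2 CPM, or 3158 counts, and all 12 other libraries held 3 counts, 1 each in leaf bud replicates 2 and 3 and in stem replicate 1. The level in mature leaves was 4326 times that over the pooled other libraries, with an exact 95% counting interval of 1479 to 20990. Cluster-12235.5418 had 48.4, 48.4 and 42.2 CPM in mature leaves and 6 counts elsewhere. Cluster-12235.4598 had 14.9, 14.3 and 12 CPM and 4 counts elsewhere, Cluster-12235.5032 had 17.5, 20.1 and 16.7 CPM and 4 counts elsewhere, all 4 of them in fruits, and Cluster-12235.5130 had 13.7, 15.2 and 14.6 CPM and 5 counts elsewhere, also in fruits alone. Cluster-12235.4344, Cluster-12235.75951, Cluster-12235.18391, Cluster-12235.75411 and Cluster-12235.75994 had between 11 and 19 counts elsewhere, which with the previous 5 made 10 members under 20 counts. Cluster-12235.4580 followed with 23 counts, 12 of them in fruits, against 1120 in mature leaves. Such members differ between other organs by a few counts only, and the ratio of the rule says little about their order.

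At the thresholds themselves, the members just inside the ratio of 16 were Cluster-12235.4443 (16.1), Cluster-12235.60780 (16.1) and Cluster-12235.30015 (16.6), and the unigenes just outside were Cluster-12235.5813 (15.1), Cluster-12235.23262 (14.8) and Cluster-12235.4998 (14.8). By the lowest mature leaf CPM, Cluster-12235.18391 (10.2), Cluster-12235.75411 (10.7) and Cluster-12235.4443 (10.9) were just inside, and Cluster-12235.14352 (9.94), Cluster-12235.53855 (9.67) and Cluster-12235.66560 (9.67) just outside. The set had no gap at either limit.

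Since the rule put the other 12 libraries on the same footing, differences among fruits, leaf buds, stems and roots were open to testing. Fruits had the highest mean of the 4 for 43 members, leaf buds for 15, stems for 2 (Cluster-12235.45591 and Cluster-12235.33585) and roots for 2 (Cluster-12235.23941 and Cluster-12235.5274). Among the 14083 unigenes of the same identifier group with at least 10 CPM in every mature leaf library, fruits led in 20.5%, leaf buds in 29.8%, stems in 21.95% and roots in 27.8%. These leaders are by CPM, without the normalization factors of the fit. For some of the 15, among them Cluster-12235.72674 and Cluster-12235.13980, the fitted log2 value of leaf buds against fruits was negative, though not called. The members' levels had a median of 0.931 CPM in fruits, 0.354 in leaf buds, 0.178 in stems and 0.0526 in roots. No count at all was found for 20 members in roots, 9 in stems, 3 in leaf buds and 1 in fruits. In bulk samples, fewer cells of a type and less RNA per cell cannot be told apart.

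A difference among the 4 organs was found for 57 of the 62 members (91.9%) by the F test of edgeR over all 4 (adjusted p below 0.05), against 74.4% of the 57488 unigenes tested. All 62 passed the low-count filter of that fit, but by their mature leaf counts. With only the 12 other libraries in the fit 43 members passed the filter and 42 differed. The share of all unigenes that differed in that smaller fit is not given here, so these 42 have no background to be set against. The 5 members that did not pass the test were Cluster-12235.4598, Cluster-12235.18391, Cluster-12235.5418, Cluster-12235.33585 and Cluster-12235.75576, and all but Cluster-12235.33585 had 11 counts or fewer over these 12 libraries. Of the 10 with the lowest adjusted p, from 8.04e-14 to 2.06e-11, fruits led in 7, namely Cluster-12235.64892, Cluster-12235.18570, Cluster-12235.18563, Cluster-12235.30015, Cluster-12235.60780, Cluster-12235.18568 and Cluster-12235.17675, and leaf buds led in Cluster-12235.33594, Cluster-12235.16229 and Cluster-12235.21489.

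The first of these, Cluster-12235.64892, had 141, 137 and 143 CPM in mature leaves and 5.89, 6.25 and 4.54 in fruits. Leaf buds had 0.730, 1.33 and 1.15 CPM, stems 0.562, 0.386 and 0.582, and roots 0.0479, 0.0495 and 0.0532. The 4 organs did not overlap, and leaf buds against fruits gave -2.73 on the log2 scale (standard error 0.182, adjusted p = 9.10e-11, edgeR). In Cluster-12235.60780, with 143, 145 and 145 CPM in mature leaves, fruits had 7.46, 8.85 and 6.71 CPM while leaf buds (1.33, 1.12 and 1.84) and stems (1.499, 1.88 and 0.984) overlapped. Its log2 value of leaf buds against fruits was -2.80 (standard error 0.185, adjusted p = 8.41e-11, edgeR), and against stems -0.13 (standard error 0.231, adjusted p = 0.717).

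For differences between 2 organs, members were counted as called where the adjusted p was below 0.05 and the log2 value beyond 1 in either direction. Each member was counted singly, including the 19 in the runs of neighbouring numbers described below. Whether such a run is 1 gene was not tested. Lower levels in leaf buds than in fruits were called for 36 members (58.1%), against 13.9% of all unigenes tested, and higher levels for 3 (4.84%), against 15.1%. The 3 were Cluster-12235.5378, Cluster-12235.16229 and Cluster-12235.75994. The last of them and some of the 36 were in the fit only through their mature leaf counts. With only the leaf bud and fruit libraries in a fit, 41 members passed the low-count filter and 26 of these were called lower. The share of all unigenes called in that fit is not given here. For 30 of the 36 the leaf buds held over 3 counts, and their log2 values ran from -4.34 to -1.10 with a median of -2.77. Over all 62 members, with each organ set at no less than 3 counts, the median was -1.74, and over all unigenes tested it was 0.05. Every fruit library lay above every leaf bud library in CPM for 32 members, against 11.4% of the 111150 unigenes with a count, and below for 6, against 28.7%. As a share of the mature leaf level, which the rule limits, fruit levels ran from 0 to 5.66% with a median of 2.52%. With library totals alone, a scaling chosen after seeing the data, the median of all unigenes moved to 0.42 and 32 members were called lower in leaf buds.

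**Figure D3:**
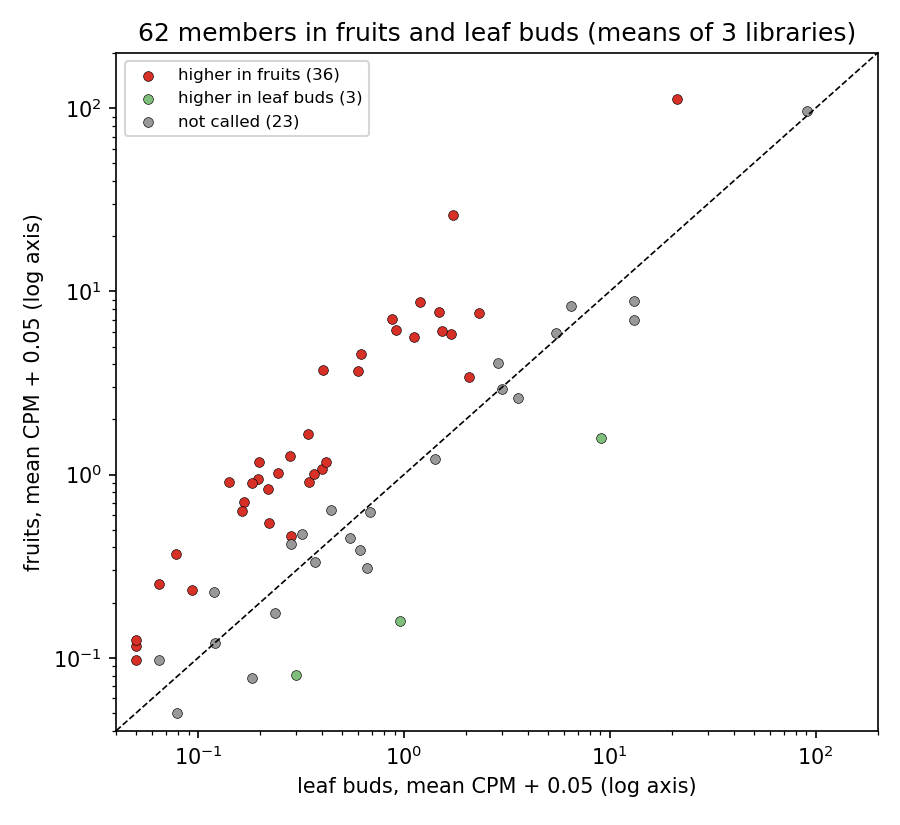
Mean CPM + 0.05 of each member in fruits (vertical, log axis) against leaf buds (horizontal, log axis), coloured by the call in leaf buds against fruits. The 36 members called higher in fruits lie above the dashed line of equal levels, the 3 called higher in leaf buds lie below it, and 23 were not called. Calls are from the fit of all 5 organs, in which some members passed the low-count filter only by their mature leaf counts.

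Against roots, leaf buds were higher for 32 members (51.6%), against 22.8% of all unigenes tested, and lower for 3 (4.84%), against 18.6%. The 3 were Cluster-12235.14859 (IPT), Cluster-12235.45591 and Cluster-12235.5274 (peroxidase). In 22 of the 32 the roots had 3 counts or fewer, so that the size of the difference is not known, and in the other 10 the log2 values ran from 1.08 to 4.91. Over all members, with each organ at no less than 3 counts, the median was 1.12, against 0.05 over all unigenes. The lower count rested on single libraries, since 7 members were called lower without leaf bud replicate 2 and 6 without root replicate 3.

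Against stems, leaf buds were higher for 16 members (25.8%), against 10.6% of all unigenes tested, and lower for 2 (3.23%), against 8.02%. The 2 were again IPT and Cluster-12235.45591. In 5 of the 16 the stems had 3 counts or fewer, and in the other 11 the log2 values ran from 1.218 to 3.97, where the highest belonged to Cluster-12235.12531, with 3.56, 2.95 and 1.93 CPM in leaf buds and 0.234, 0.129 and 0.134 in stems. The median over members was 0.60 with each organ at no less than 3 counts, against 0.08 over all unigenes. Neither call was made for 44 members. These 3 comparisons share the leaf bud libraries, so their counts are not independent of each other. With only the 6 libraries compared in a fit, fewer members passed the low-count filter, and leaf buds were higher for 13 of 23 against roots and 5 of 25 against stems, and lower for 26 of 41 against fruits. The shares of all unigenes called in these smaller fits are not given here, so these counts have no background to be set against.

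**Figure D4:**
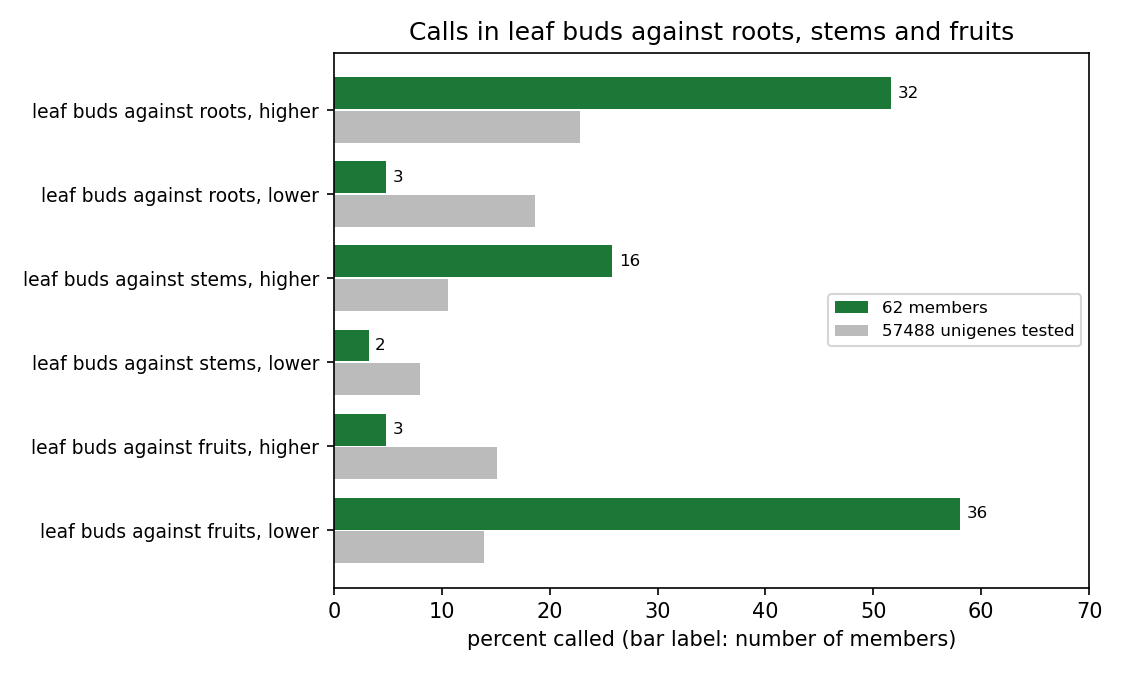
Percent of the 62 members (green) and of the 57488 unigenes tested (grey) called higher or lower in leaf buds against roots, stems and fruits, with the number of members at each green bar. The green bar is longest for lower levels against fruits (36 members), and it is shorter than the grey bar for higher levels against fruits and for lower levels against roots and stems.

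Some members carried neighbouring numbers. In 6 runs, with numbers at most 3 apart, stood 19 of the 62. The longest ran from Cluster-12235.18563 to Cluster-12235.18570 and held 6 members among 8 unigenes, with mean levels in mature leaves of 178, 22.6, 60.6, 22.6, 173 and 271 CPM. Their fruit means ran from 0.657 to 7.59 CPM and their leaf bud means from 0.117 to 2.27 CPM, with fruits above leaf buds in each. The most abundant of them, Cluster-12235.18570, had 273, 271 and 268 CPM in mature leaves, 7.41, 7.07 and 8.29 in fruits and 1.63, 2.20 and 2.98 in leaf buds, with no overlap. Its log2 value of leaf buds against fruits was -2.11 (standard error 0.176, adjusted p = 3.05e-09, edgeR). At the other end of the run, Cluster-12235.18563 had 182, 175 and 177 CPM in mature leaves, and its fruits (5.52, 5.89 and 5.91 CPM) again lay above its leaf buds (1.12, 2.06 and 1.74 CPM).

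In the run from Cluster-12235.30012 to Cluster-12235.30016, 4 of 5 were members, with 78.8, 82.1, 164 and 79.2 CPM in mature leaves and 3.61, 3.68, 8.70 and 4.48 CPM in fruits. The remaining unigene, Cluster-12235.30013, had 17.3 CPM in mature leaves and a ratio of 13.3.

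Another run, from Cluster-12235.66558 to Cluster-12235.66561, held 3 members among 4 unigenes, with 16.3, 44.3 and 36.0 CPM in mature leaves and 0.317, 0.900 and 0.780 CPM in fruits. The run from Cluster-12235.5415 to Cluster-12235.5418 held the AHP member and Cluster-12235.5418 at its ends, with both further AHP unigenes between them. Cluster-12235.31590 and Cluster-12235.31591 formed a pair (31.2 and 29.1 CPM), as did Cluster-12235.75410 and Cluster-12235.75411 (70.5 and 11.1 CPM). The sources used here do not say how fragments were divided between similar unigenes, and whether a run is 1 gene or several was not tested, so the levels within a run are uncertain. The counts and percents of members called may therefore count 1 gene more than once.

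**Figure D5:**
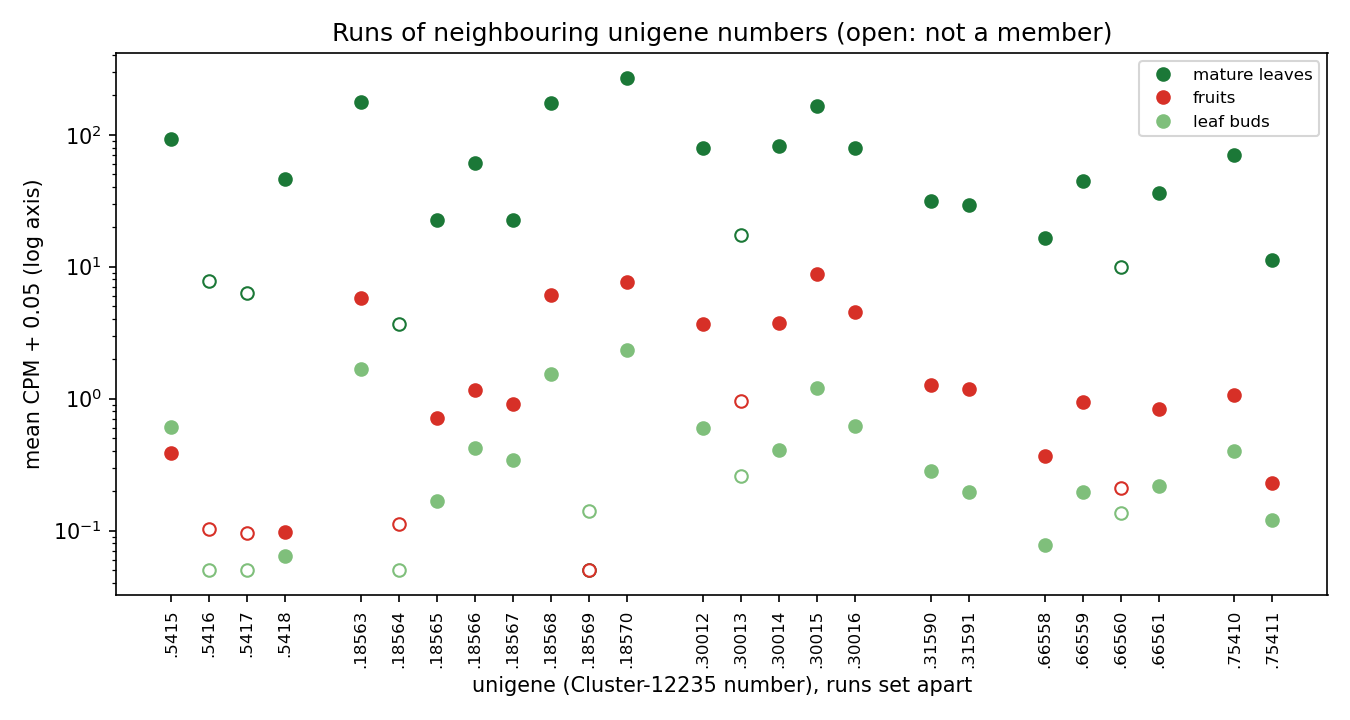
Mean CPM + 0.05 (log axis) of the unigenes in the 6 runs of neighbouring numbers, in mature leaves, fruits and leaf buds, with filled points for members and open points for the other unigenes of a run. Fruits lie above leaf buds for all members shown except Cluster-12235.5415.

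The effective length of the members, worked back from the count and the FPKM, had a median of 795.5 bases and ran from 60 to 5889, and 10 members were under 300 bases. The median of the 14083 unigenes of the same group with at least 10 CPM in mature leaves was 1755. Effective length is not the length of the assembled unigene, since its lowest values lie below the shortest unigene that the paper reports. Members of short effective length have a high FPKM for their count, as in Cluster-12235.18565 (effective length 74 bases, 22.6 CPM and 301 ± 25.7 FPKM, SD, n = 3). Replicates were close: the coefficient of variation over the 3 mature leaf libraries had a median of 3.93% among members, and 4.12% among those 14083 unigenes.

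Pathways of leaf function were set beside the members through lists of the study's KEGG table, most of them held only in part. Held were 20 of 34 unigenes of antenna proteins, 20 of 89 of photosynthesis and 22 of 93 of porphyrin and chlorophyll metabolism. Carbon fixation had 21 of 254, carotenoids 21 of 155, the circadian clock 20 of 109 and plant-pathogen interaction 21 of 672. Cutin, suberine and wax had 21 of 45, limonene and pinene degradation 21 of 53 and monoterpenoids 11 of 11. The counts describe the held parts only. Of the listed unigenes 2 were members, FAR in the list of cutin, suberine and wax and ALDH in that of limonene and pinene degradation, and the rule fixed their higher level in mature leaves. Of all unigenes tested, calls of a higher level in mature leaves made up 16.9% and of a lower level 16.8% against leaf buds, 14% and 12.2% against fruits, 18.4% and 15.5% against stems, and 20.7% and 19.2% against roots. Of the antenna proteins, 20 unigenes were held and 18 tested, and 18 were higher in mature leaves than in leaf buds, 14 than in fruits, 17 than in stems and 18 than in roots. For the list of photosynthesis, with 16 tested, these numbers were 11, 12, 12 and 14, and for porphyrin and chlorophyll metabolism, with 10 tested, they were 7, 6, 8 and 9. In these 3 lists no unigene was called lower in mature leaves by edgeR. With library totals alone, the 7 of porphyrin and chlorophyll metabolism against leaf buds became 2. None of the unigenes held of these 3 lists was a member.

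Carbon fixation, with 15 tested of the 21 unigenes held, had 2 unigenes called higher and 2 called lower against leaf buds, and 3 and 2 against fruits. Carotenoid biosynthesis, with 15 tested, had 7 higher and 3 lower than in leaf buds and 4 higher and 4 lower than in fruits. The list of the circadian clock, with 18 tested, had 7 higher and 2 lower than in leaf buds, and 4 higher and 1 lower than in fruits. Plant-pathogen interaction, with 15 tested, had 4 higher and 2 lower than in leaf buds and in stems, 5 and 3 than in roots, and 3 and 3 than in fruits. Monoterpenoid biosynthesis, with 10 tested, had 4 higher and 3 lower than in leaf buds, 3 and 3 than in stems, 6 and 2 than in roots, and 2 and 3 than in fruits. Limonene and pinene degradation, with 11 tested, had 7 higher and 2 lower than in leaf buds, 7 and 1 than in stems, 5 and 2 than in roots, and 5 and 2 than in fruits, where 1 of the higher unigenes in each comparison was the member ALDH.

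The list of cutin, suberine and wax biosynthesis, the polymers and lipids of plant surfaces, went the other way. Of its 18 unigenes tested, 11 were lower and 4 higher in mature leaves than in leaf buds, 11 lower and 3 higher than in fruits, and 8 lower and 2 higher than in stems, while against roots 3 were lower and 8 higher (5 lower with library totals alone). In each comparison 1 of the higher unigenes was the member FAR, Cluster-12235.32575, which the rule chose for being high in mature leaves.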

How the data were processed

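The authors deposited 1 table a library (15 in all) that gives every unigene an estimated count, not always a whole number, and an FPKM value. The authors filtered paired Illumina reads, assembled them with Trinity and counted fragments on that assembly. Base calling with CASAVA 1.8 is named in the submitters' processing notes, and the aligner and counter are not given in the sources used here. No genome was used and no sequences are shown. The members and lists were chosen with earlier results of these data known. Members to be named were the 10 most abundant, the 10 with the largest ratio, all with an entry in the supplementary tables, the 10 with the lowest adjusted p among the other organs, and those at the thresholds. Others named were chosen after their values were seen.

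Counts were rounded and tested with edgeR 4.0.16 in R 4.3.3 (1 fit of all 5 organs with 10 residual degrees of freedom, quasi-likelihood F tests, TMM scaling and the default filterByExpr limits), with Benjamini-Hochberg adjustment over 57488 unigenes. The standard error is the absolute log2 fold change over the square root of F. A fold in CPM is a ratio of organ means. Effective length used libraries with at least 100 counts. P-values measure the spread between 3 mixtures of plants. On simulated data with 200 changed unigenes, 91 of 100 changes of 4-fold and 100 of 100 of 16-fold were called in leaf buds against fruits, over 54835 unigenes. The changed unigenes had an expected count of at least 10 a library in the other organs and were only raised in leaf buds. Many members had fewer counts there, and lower levels were not simulated, so recovery for such members is not known. Alternatives were DESeq2 1.42.0, its size factors in edgeR, library totals alone, other filters, a replicate block, fewer libraries in the fit, each library left out, and other thresholds of the rule.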

Additional observations from a re-analysis of the deposited data

How the results depend on the processing

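The number of members followed its thresholds, with 181 at a ratio of 8 and 25 at a ratio of 32, and stayed between 42 and 77 under the other 5 settings of the rule. Leaving out 1 library, which can only relax the rule, gave 62 to 69 members, and FPKM in place of CPM gave 73, of which 55 were shared. With only the 6 libraries compared, leaf buds were higher for 13 members against roots and for 5 against stems, of 23 and 25 that passed the filter. No share of all unigenes is given for those fits. Without 1 library, leaf buds were higher than roots for 27 to 34 members and lower for 3 to 7, higher than stems for 11 to 17 and lower for 2 to 2, higher than fruits for 2 to 3 and lower for 31 to 36, and 54 to 58 differed among the 4 organs. For the 50 contrasts of named members that were called, 1018 of 1080 values under alternatives kept the call, 62 lost it and 0 were reversed. The cause was not tested. The labels do not say whether libraries of the same number came from the same plants. None of the 30 same-numbered pairs of libraries from different organs had a correlation of deviations over 0.1. A pair of unlike number, root replicate 3 and fruit replicate 1, reached 0.2, so this measure does not tell whether plants were shared. With the replicate block 34 members were lower in leaf buds than in fruits in place of 36, and 56 differed among the 4 organs in place of 57, while 32 and 3 were higher and lower than in roots, 16 and 2 than in stems, and 3 higher than in fruits. Depth limits members at 3 counts or fewer in an organ, which were 32 in roots, 16 in stems, 8 in leaf buds and 5 in fruits.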
